A study of Homo sapiens with 8 samples.

Results

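The receptors that bind the 5 cytokines of the M5 mixture were examined in HaCaT cells, an immortalised line of human keratinocytes. M5 combines IL-17A, IL-22, IL-1α, TNF-α and oncostatin M and is added to keratinocytes in culture to give them features of psoriatic epidermis. The 10 genes were taken by name, as the chains that each cytokine is known to engage: IL17RA and IL17RC for IL-17A, IL22RA1 and IL10RB for IL-22, IL1R1 and IL1RAP for IL-1α, TNFRSF1A and TNFRSF1B for TNF-α, and OSMR and IL6ST for oncostatin M. They are 10 of 17131 genes in the deposited table, and all 10 passed the filter on low counts that left 12434 genes for testing.

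RNA-seq was performed on 8 libraries of wild type HaCaT cells, 4 titled M5_O5 and 4 titled M5. Per the study's methods, M5 was given to the cells of both groups for 24 h. The cells of one group had first been incubated with OTS514, an inhibitor of the kinase TOPK, and then received it together with M5. The title and the treatment label of these libraries are opposed: the libraries titled M5_O5 carry the label for no treatment, and the libraries titled M5 carry the label TOPK inhibitor. The groups are therefore called by their titles, each difference is given as M5_O5 over M5, and no difference is assigned to the inhibitor. PBK, the gene that encodes TOPK, had a mean of 2.98 ± 0.563 CPM (read counts scaled to the library's size) in M5_O5 and 1.22 ± 0.953 in M5 (SD, n = 4 each; edgeR's quasi-likelihood test, log2 fold change 1.32, Benjamini-Hochberg adjusted p = 0.00738). It rested on 9 to 62 counts per library. The groups overlapped, with M5 replicate 1 at 2.63 CPM and M5_O5 replicate 3 at 2.25. A two-sided exact permutation test on log2 CPM gave p = 0.0571. No expression level was used to decide between title and treatment label. HaCaT is 1 line, no culture without M5 is among the libraries, and nothing in the labels says that the 4 libraries of a group came from separate cultures, so the p-values measure only the spread between these libraries.

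Library totals ran from 13708055 to 16922693 counts, with M5 replicate 1 the lowest. The keratinocyte markers KRT5, KRT14, KRT6A and TP63 were present in every library, with a summed level of 8329.6 to 9689 CPM in M5_O5 and 10467 to 11662 in M5, so this sum was lower in every M5_O5 library. PTPRC, which marks leukocytes, was at 0 in every library, and the 4 leukocyte markers summed to 31.7 to 37.2 CPM in M5_O5 and 36.1 to 39.9 in M5. Only 1 of these 4 passed the filter on low counts, so their sum rests mostly on 1 gene. The 4 fibroblast markers summed to 30.5 to 34.8 CPM in M5_O5 and 40.7 to 55.2 in M5, the 3 endothelial markers with values to 3.10 to 3.79 and 0.249 to 1.04, mostly CDH5 in M5_O5 (2.93 against a mean of 0.320 CPM in M5), and the 3 melanocyte markers with values to 0.698 to 1.09 and 0.803 to 0.914. Most of the fibroblast sum was COL1A1 (32.8 against 48.8 CPM), and the endothelial marker VWF stood at 0.451 and 0.400 CPM. The part of these shifts in the receptor levels was not tested, and in bulk RNA fewer cells of a kind cannot be told apart from less RNA per cell.

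Each M5 cytokine signals through chains of a different family. The IL-17 receptor recruits the adapter ACT1 and TRAF6, the IL-1 receptor recruits MyD88 and the IRAK kinases, and TNF receptor 1 recruits TRADD and RIPK1, and these routes meet at NF-κB and the MAP kinases. IL-22 and oncostatin M act through Janus kinases and STAT3. In keratinocytes these routes switch on chemokines, antimicrobial peptides and proliferation, and how much of each chain a cell makes is one limit on how strongly it can answer a cytokine.

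OSMR and TNFRSF1A were the most abundant of the 10 receptor genes and IL22RA1 the least. The TPM scale divides by transcript length and so allows levels of different genes to be compared. On this scale the mean over the 8 libraries was 205 for OSMR, which pairs with IL6ST to receive oncostatin M. For TNFRSF1A, the main receptor of soluble TNF, it was 133. OSMR lay at the 95.4th and TNFRSF1A at the 92.6th percentile of the tested genes. The shared accessory chains came next, IL1RAP at 59.8 TPM, IL6ST (gp130) at 45.4 and IL10RB at 23.0. IL17RA stood at 14.3 TPM, IL1R1 at 10.5 and IL17RC at 5.42. At the low end were TNFRSF1B, the second TNF receptor and one best known from leukocytes, at 1.73 TPM, and IL22RA1, the chain that gives epithelial cells their response to IL-22, at 1.14. The ranges over libraries overlapped for 3 neighbouring pairs of this order, IL1RAP with IL6ST, IL17RA with IL1R1 and TNFRSF1B with IL22RA1, and the other neighbours did not overlap. IL22RA1 and TNFRSF1B rested on 19 to 41 and 49 to 69 counts per library, against 8297 to 10591 for OSMR, so their differences are known with far less precision.

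Between the groups, IL1R1 was higher in M5_O5 and TNFRSF1A, IL17RA and IL1RAP were lower, and the other 6 receptor genes did not pass the test. Levels between groups are given in CPM after TMM scaling. Calls are those of edgeR's quasi-likelihood test at 0.05, with Benjamini-Hochberg adjustment over all 12434 genes. Of all tested genes, 19.5% were called higher in M5_O5 and 17.6% lower, so 1 and 3 of 10 receptors are close to the background share of calls. None of the 10 was both called and changed by 2-fold or more, against 3.2% of all tested genes. The median log2 fold change of the 10 was -0.14, with 7 of the 10 below 0, against 0.01 over all tested genes. All 4 M5_O5 libraries lay above all 4 M5 libraries for IL1R1, as for 17.8% of all genes, and below them for TNFRSF1A and IL10RB, as for 15.8% of all genes; for the other 7 receptors the groups overlapped.

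**Figure D1:**
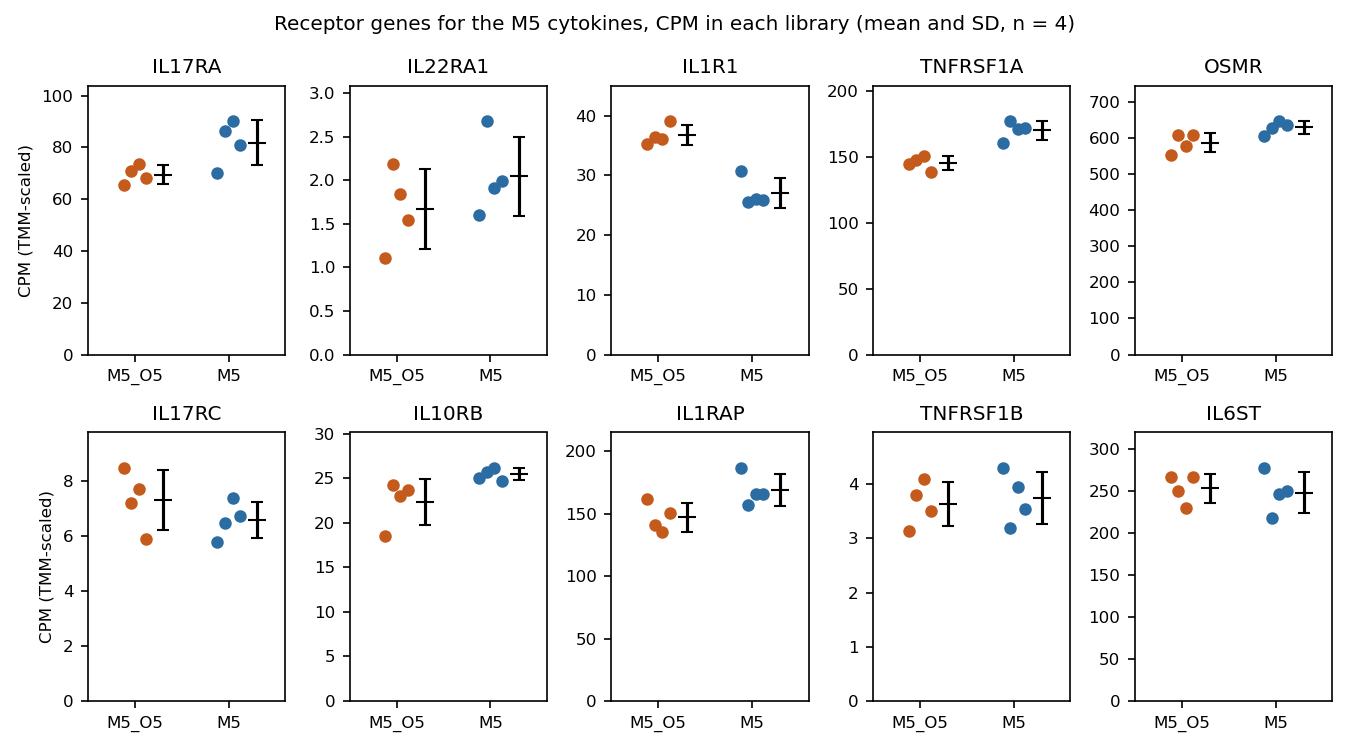
TMM-scaled CPM (y axis, from 0) of each receptor gene in each library (x axis, by title), points being libraries and the black mark and bar the mean and SD of 4. The IL1R1 points of M5_O5 lie above every M5 point, those of TNFRSF1A and IL10RB below, and the other 7 panels overlap.

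IL1R1, the signalling chain of the IL-1 receptor, was higher in M5_O5. The lower level of its partner chain IL1RAP was called only under some of the settings. IL1R1 binds IL-1α, and IL1RAP then joins it to bring the pair of intracellular domains together. IL1R1 stood at 35.2, 36.4, 36.1 and 39.1 CPM in M5_O5 replicates 1 to 4 and at 30.8, 25.5, 26.0 and 25.9 CPM in M5. The lowest M5_O5 library was above the highest M5 library, which was M5 replicate 1. The means were 36.7 ± 1.67 and 27.1 ± 2.50 CPM (SD, n = 4), a 1.36-fold difference (edgeR's quasi-likelihood test, log2 fold change 0.44, SE 0.07, adjusted p = 0.000407). IL1R1 passed in 11 of 11 alternative analyses and with each of the 8 libraries left out, with a log2 fold change between 0.41 and 0.56.

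IL1RAP, by contrast, stood at 161, 141, 135 and 150.5 CPM in M5_O5 and at 187, 157, 166 and 166 CPM in M5. M5_O5 replicates 2, 3 and 4 lay below every M5 library, and M5_O5 replicate 1 overlapped. Its log2 fold change was -0.20 (SE 0.07; edgeR's quasi-likelihood test, adjusted p = 0.0333; two-sided exact permutation test on log2 CPM, p = 0.0571). This call was kept in 6 of 11 alternatives and in 2 of the 8 fits with a library left out, with log2 fold changes of -0.25 to -0.15 in the latter. The size of the estimate also depended on the scaling. It was -0.08 by library size only, on log2(TPM + 1) and with a trend of fold change on expression level subtracted, and was called in none of these.

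The promoters of both chains are shown because their estimates had opposite signs, that of IL1RAP being small and not always called. They are RefSeq sequences on GRCh38.p14, 250 bases before to 50 bases after the start, written 5′ to 3′ on the gene's strand, with the 50 transcribed bases in capitals. IL1R1 has 4 annotated starts, and the start shown is the one nearest to its most abundant transcript, 40 bases away.
IL1R1, chr2:102142496-102142795, plus strand: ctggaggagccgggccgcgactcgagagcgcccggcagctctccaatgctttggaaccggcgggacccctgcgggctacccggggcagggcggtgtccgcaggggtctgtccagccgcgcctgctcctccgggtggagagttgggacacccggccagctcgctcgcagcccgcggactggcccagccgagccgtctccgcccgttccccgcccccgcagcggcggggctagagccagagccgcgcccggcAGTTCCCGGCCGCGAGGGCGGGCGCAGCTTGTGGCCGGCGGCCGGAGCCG
IL1RAP, chr3:190513835-190514134, plus strand: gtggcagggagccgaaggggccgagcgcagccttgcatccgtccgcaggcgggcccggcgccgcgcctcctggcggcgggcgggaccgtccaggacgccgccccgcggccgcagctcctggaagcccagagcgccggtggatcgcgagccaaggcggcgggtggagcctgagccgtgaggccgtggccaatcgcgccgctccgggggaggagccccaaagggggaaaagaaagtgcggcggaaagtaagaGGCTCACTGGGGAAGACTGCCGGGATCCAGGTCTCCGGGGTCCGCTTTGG
Neither window holds an AP-1 motif (TGANTCA, either strand), a STAT motif (TTCNNNGAA) or the NF-κB consensus, which are found in 7.71%, 7.66% and 5.91% of 35116 RefSeq promoter windows of this length. An absent match says only that these letters are not in the window.

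The balance of the 2 chains also separated the groups. The ratio of IL1R1 to IL1RAP in TPM was 0.192, 0.221, 0.227 and 0.227 in M5_O5 and 0.145, 0.140, 0.138 and 0.134 in M5. IL1R1 was thus the scarcer chain throughout, and the groups did not overlap. The difference was 0.64 on the log2 scale, or 1.55-fold (two-sided exact permutation test, p = 0.0286, the smallest that 4 against 4 allows). Benjamini-Hochberg adjustment over the 5 receptor pairs compared gave an exact permutation p of 0.0714, which misses 0.05. A ratio within a library does not depend on library scaling, but it can follow a trend of fold change on expression level, which these data have. With a smooth curve of fold change on level subtracted, a step chosen after the data were seen, the difference was 0.51 and the groups still did not overlap. The exact permutation p was again 0.0286, and 0.143 adjusted over the 5 pairs.

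IL1RAP also makes a short soluble form that lacks the membrane anchor. The 2 transcripts with a coding length of 356 codons, against 570 for the full receptor, held 2.47%, 2.84%, 2.81% and 2.23% of the IL1RAP counts in M5_O5 and 2.95%, 3.17%, 4.20% and 2.97% in M5. Transcripts with a known coding length held 96.6% of the IL1RAP counts, and the rest was not placed in either class. The M5_O5 shares of the short form were all below the M5 shares. They rest on 56.4 to 106 estimated counts per library, the split of reads between transcripts is itself an estimate, and the comparison was singled out after its values were seen, so no test is given.

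IL1R1 lies in a cluster of receptor genes of its family on chromosome 2. In RefSeq order the cluster is IL1R2, IL1R1, IL1RL2, IL1RL1, IL18R1 and IL18RAP, and it was set side by side after the values were seen. IL1R2, a decoy that binds IL-1 without signalling, stood at 28.5, 26.5, 23.6 and 21.6 CPM in M5_O5 and 15.5, 13.9, 14.6 and 13.1 CPM in M5, with no overlap. Its log2 fold change was 0.81 (SE 0.10; edgeR's quasi-likelihood test, adjusted p = 2.49e-05). By TPM, the decoy was more abundant than IL1R1 in both groups, 36.2 against 12.5 in M5_O5 and 18.8 against 8.61 in M5.

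IL1RL2, the IL-36 receptor, and IL18R1, the IL-18 receptor chain, were also called higher, though at about 1 CPM or less. IL18R1 had 22 to 28 counts in the M5_O5 libraries and 3 to 7 in M5 replicates 2, 3 and 4, with 17 in M5 replicate 1, for a log2 fold change of 1.37 (SE 0.37, edgeR adjusted p = 0.00917) that became 2.04 without M5 replicate 1. IL1RL2 had 11 to 23 counts in M5_O5 and 3 to 10 in M5 (log2 fold change 1.70, SE 0.39, edgeR adjusted p = 0.00352), and its CPM values overlapped. IL1RL1, with 1 to 17 counts, and IL18RAP, with 0 or 1, were not tested. IL1RL2 and IL18R1 entered the test by the filter on low counts because of their level in M5_O5, so only IL1R2 and IL1R1 were well measured in both groups, and no count over the cluster is read as a result. Of the tested genes on its flanks, CREG2 was higher (0.31), MAP4K4 lower (-0.43) and SLC67A2 not called (-0.07). The tested family members on other chromosomes were lower, IL1RAP as above and SIGIRR, which restrains signalling by IL-1 family receptors, at 30.8 ± 1.20 CPM in M5_O5 against 41.9 ± 3.85 in M5 (log2 fold change -0.44, edgeR adjusted p = 0.000374).

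**Figure D2:**
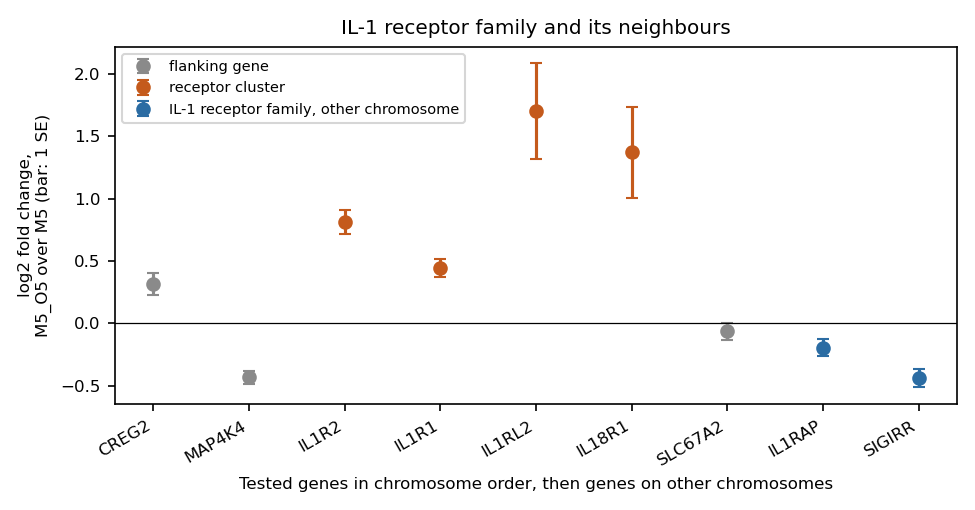
Log2 fold change of M5_O5 over M5 (y axis, bars 1 SE) for the tested genes of the IL-1 receptor cluster and its flanks in RefSeq order, followed by family members on other chromosomes (x axis). IL1R1 and IL1R2 lie at 0.44 and 0.81, IL1RL2 and IL18R1 rest on 3 to 28 counts per library, and IL1RAP and SIGIRR lie at -0.20 and -0.44.

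IL17RA, the chain that most IL-17 receptors share, was lower in M5_O5, and IL17RC, which joins it to bind IL-17A, did not pass the test. IL17RA stood at 65.5, 70.8, 73.7 and 68.2 CPM in M5_O5 and at 70.1, 86.4, 90.2 and 80.9 CPM in M5. The groups overlapped only through M5 replicate 1. The log2 fold change was -0.24 (SE 0.07; edgeR's quasi-likelihood test, adjusted p = 0.0216; exact permutation p = 0.0857), and it passed in 6 of 11 alternatives and 4 of 8 fits with a library left out. IL17RC stood at 8.49, 7.18, 7.70 and 5.88 CPM in M5_O5 and at 5.77, 6.47, 7.37 and 6.73 CPM in M5, with partly overlapping groups (log2 fold change 0.15, SE 0.13; 2 SE on either side runs from -0.11 to 0.41).

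The ratio of IL17RA to IL17RC in TPM was 1.90, 2.41, 2.33 and 2.84 in M5_O5 and 2.97, 3.24, 3.02 and 2.95 in M5. IL17RA was the more abundant chain in every library, by less in M5_O5, and the groups did not overlap. The log2 difference was -0.37 (two-sided exact permutation test, p = 0.0286, and 0.0714 adjusted over the 5 pairs). With the trend of fold change on expression level subtracted it was -0.14, with overlapping groups (exact permutation p = 0.314), so this shift, unlike that of the IL-1 pair, was no longer seen once the trend was taken out.

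**Figure D3:**
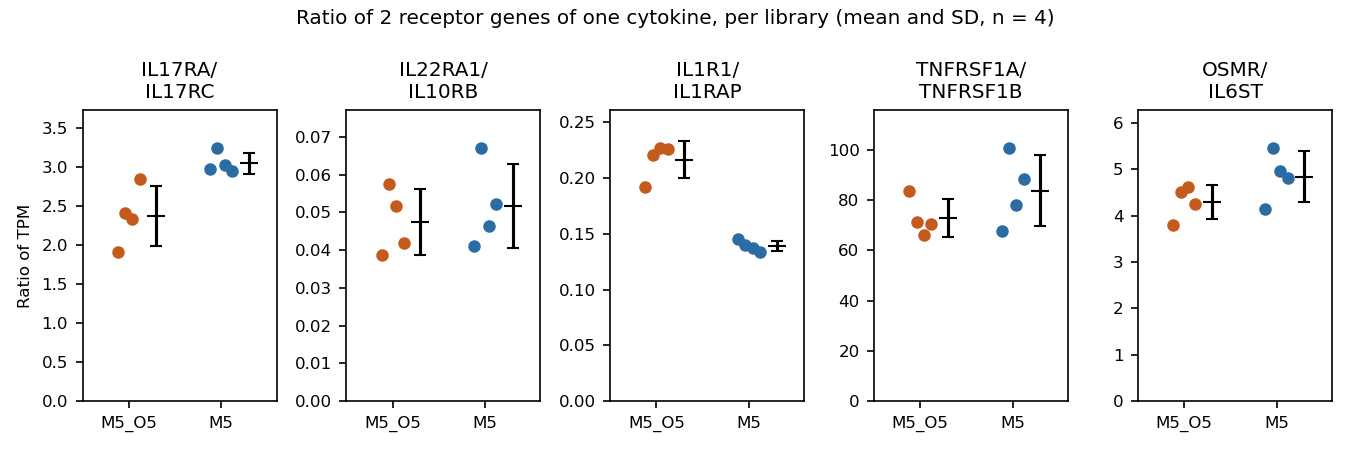
Ratio of TPM of the 2 receptor genes of each cytokine (y axis, from 0) in each library (x axis, by title), with the mean and SD of 4 in black. The M5_O5 points lie below the M5 points for IL17RA/IL17RC and above them for IL1R1/IL1RAP, and overlap for the other 3 pairs.

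TNFRSF1A, the death-domain receptor through which soluble TNF-α acts on most cells, was lower in M5_O5. Its values were 144.5, 148, 151 and 138.9 CPM in M5_O5 and 160.4, 177, 171 and 172 CPM in M5, without overlap. The means were 146 ± 5.22 and 170.2 ± 7.04 CPM (SD, n = 4), a log2 fold change of -0.22 (SE 0.05; edgeR's quasi-likelihood test, adjusted p = 0.00423). The call held with each of the 8 libraries left out. It depends on the scaling, however: scaled by library size only the log2 fold change was -0.11, and on log2(TPM + 1) it was -0.10, neither of them called, while the median over all genes was then 0.13 and 0.12 rather than 0.01. With the trend on expression level taken out, the log2 fold change was also -0.11 and not called (edgeR adjusted p = 0.133), with the median over all genes at 0.0013. TNFRSF1B stood between 3.14 and 4.31 CPM in all libraries, with overlapping groups (log2 fold change -0.04, SE 0.15, with 2 SE on either side from -0.34 to 0.25), and its sign changed with the scaling. The ratio of TNFRSF1A to TNFRSF1B ran from 66.0 to 83.5 in M5_O5 and from 67.8 to 101 in M5, and did not separate the groups (exact permutation p = 0.229).

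Neither chain of the IL-22 receptor passed the test. IL10RB, the accessory chain that IL-22 shares with IL-10 and the type III interferons, stood at 18.5, 24.2, 23.0 and 23.7 CPM in M5_O5 and at 25.04, 25.7, 26.2 and 24.7 CPM in M5. Every M5_O5 value was the lower, but the log2 fold change of -0.19 (SE 0.08) had an adjusted p of 0.0996 in edgeR's quasi-likelihood test, and it passed in none of 11 alternatives. IL22RA1 stood at 1.10, 2.18, 1.84 and 1.55 CPM in M5_O5 and at 1.61, 2.68, 1.91 and 1.99 CPM in M5, with overlap. With 19 to 41 counts per library, a log2 difference from -0.76 to 0.16 lies within 2 SE of its estimate of -0.30, so a change of modest size was not detectable at this depth. The ratio of IL22RA1 to IL10RB ran from 0.0387 to 0.0575 in M5_O5 and from 0.0410 to 0.0670 in M5 (exact permutation p = 0.571), IL22RA1 being the scarcer chain in all libraries.

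IL22RA1 is the receptor gene whose promoter window holds both an AP-1 and an NF-κB motif, and it is shown for that reason, from the same RefSeq table, with the matches in capitals. The first run of capitals is the AP-1 match, starting at base -223, and the second is the NF-κB match at -157, with positions counted from the first transcribed base as 0.
IL22RA1, chr1:24143091-24143390, minus strand: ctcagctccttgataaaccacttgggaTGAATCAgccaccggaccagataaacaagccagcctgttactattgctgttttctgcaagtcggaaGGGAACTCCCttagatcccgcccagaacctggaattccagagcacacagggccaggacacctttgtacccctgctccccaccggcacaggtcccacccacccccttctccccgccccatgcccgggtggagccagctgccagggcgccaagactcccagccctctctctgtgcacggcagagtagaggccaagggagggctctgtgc
Among the 9 receptor genes with a window in the table, IL10RB holds a STAT match at 11 and OSMR an AP-1 match at 3, and the other 6 hold none of the 3 motifs. The window of IL17RA was not analysed here.

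Neither chain of the oncostatin M receptor passed the test, and its chain OSMR was the most abundant gene of the set. OSMR stood at 554, 608, 577 and 608 CPM in M5_O5 and at 606, 627, 646 and 636 CPM in M5. The groups overlapped narrowly, the log2 fold change was -0.10 (SE 0.05), and edgeR's quasi-likelihood test gave an adjusted p of 0.161. Its sign turned to 0.02 when scaled by library size only and to 0.08 with the expression trend removed. IL6ST, the gp130 chain that oncostatin M shares with IL-6 and LIF, ran from 230.4 to 267 CPM in M5_O5 and from 218 to 278 CPM in M5 (log2 fold change 0.03, SE 0.07, with 2 SE on either side from -0.12 to 0.18). The ratio of OSMR to IL6ST was 3.81 to 4.62 in M5_O5 and 4.13 to 5.46 in M5 (exact permutation p = 0.171).

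**Figure D4:**
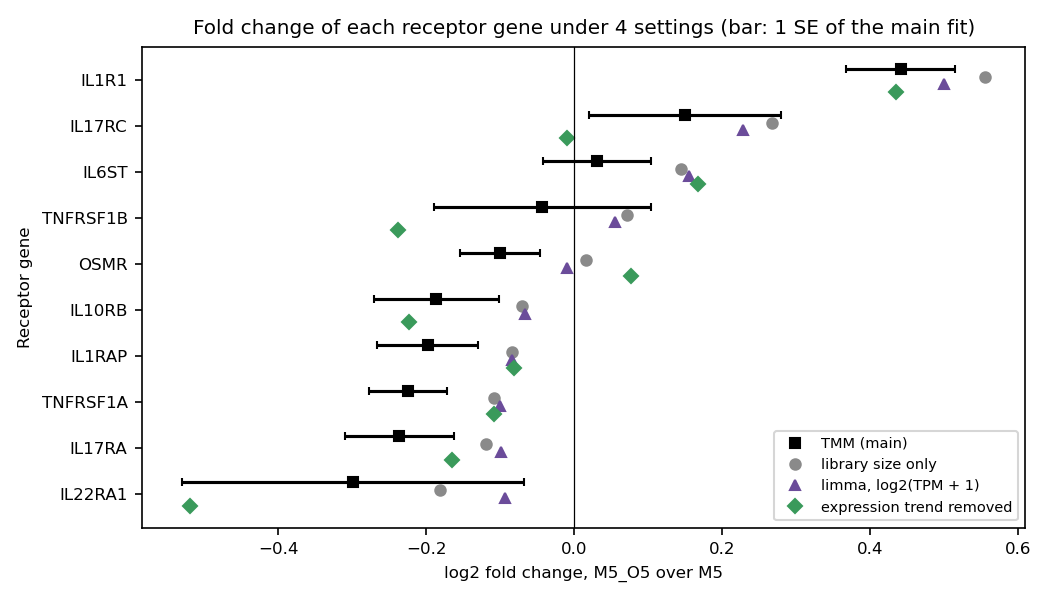
Log2 fold change of M5_O5 over M5 (x axis) for each receptor gene (y axis) under TMM scaling (black, bar 1 SE), library size only (grey), limma on log2(TPM + 1) (purple) and after subtracting the trend of fold change on level (green). IL1R1 stays at 0.43 or above in all 4, the 3 called decreases move towards 0, and OSMR, TNFRSF1B and IL17RC cross it.

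The share of a gene's counts on its leading transcript overlapped between the groups for all 9 receptor genes with more than 1 listed transcript. The two-sided exact permutation p-values ran from 0.200 to 0.886. The leading transcript held 93.8% to 97.0% of the IL6ST counts and 94.8% to 98.5% of the TNFRSF1A counts. It held only 41.1% to 50.6% of the OSMR counts and 45.4% to 58.4% of the IL1RAP counts, so several transcripts carry these genes.

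Around the 10 receptors, calls among the other receptors of the same families went in both directions. Of 26 tested, 7 were higher and 6 lower, against 19.5% and 17.6% of all tested genes, with a median log2 fold change of -0.05. Among the higher calls, IL1RL2, IL18R1 and IL27RA had as few as 3, 3 and 9 counts in an M5 library. These genes entered the test because of their level in M5_O5, so the number of higher calls is not read as a result. In the IL-10 receptor family, 2 of 3 were higher and none lower, IL20RB at 42.5 ± 4.66 against 33.8 ± 4.03 CPM (log2 fold change 0.33) and IL20RA (0.61), which together receive IL-19, IL-20 and IL-24. The IL20RA call, on 16 to 49 counts, was kept in 3 of 8 fits with a library left out. In the TNF receptor family 1 of 14 was higher, the costimulatory receptor CD40 (0.50), and 5 were lower, among them the TRAIL decoy TNFRSF10D (-0.74), the soluble decoy TNFRSF6B (-0.37, kept in 5 of 8 fits with a library left out) and LTBR, the lymphotoxin β receptor (-0.33). LTBR was the most abundant of that family at 206 TPM, above TNFRSF1A. Of the 4 tested in the gp130 family only IL27RA was called (0.84, at 9 to 28 counts, and kept in 7 of 9 alternatives), and IL6R, at 8.03 TPM, was not (-0.15). IL17RD, at 0.531 TPM, was the one further IL-17 receptor gene tested and was not called (-0.26).

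Of 26 adapters, kinases and STATs that carry these signals inwards, 2 were higher and 8 lower, against 19.5% and 17.6% of all tested genes, and the list's median was -0.11. Once the level trend was subtracted, the counts became 3 higher and 4 lower, against 2012 higher and 1692 lower of all 12434 tested genes. IRAK2, a kinase of the IL-1 receptor complex, stood at 63.3 ± 4.21 CPM in M5_O5 and 89.2 ± 3.77 in M5 (log2 fold change -0.50, edgeR adjusted p = 3.82e-05), and STAT3, the most abundant at 229 TPM, was lower by a smaller step (-0.21), a call kept in 7 of 11 alternatives with values down to -0.03. TRAF5 (0.78) and JAK2 (0.69) were the 2 called higher. Of 15 tested genes that shed receptors or dampen these routes, none was higher and 7 were lower, with a median of -0.16: the largest steps were in RHBDF1, which escorts the sheddase ADAM17 (-0.42), TRAF3, a brake on IL-17 receptor signalling (-0.28, but 0.03 on log2(TPM + 1) and on log2(TPM + 0.1)), and SOCS3, the feedback inhibitor of gp130 (-0.27, called in 8 of 11 alternatives). TNIP1, the most abundant at 282 TPM, was not called (-0.16). After the same subtraction, with the same counts over all genes, none of this list was called higher and 2 lower.

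Among 10 tested ligands of these receptor families, 4 were higher and 2 lower, against 19.5% and 17.6% of all tested genes, with a median of 0.03. LIF and IL6, which signal through IL6ST, were the ones that moved most. LIF stood at 46.7, 47.0, 55.1 and 47.7 CPM in M5_O5 and at 16.4, 20.1, 17.5 and 19.8 CPM in M5 (log2 fold change 1.41, edgeR adjusted p = 7.79e-08). IL6 stood at 27.8, 21.7, 25.2 and 23.8 CPM in M5_O5 and at 10.7, 7.38, 7.24 and 6.79 CPM in M5 (log2 fold change 1.62, edgeR adjusted p = 9.76e-07). Both were above 2-fold with no overlap, while IL6ST itself stayed within 2 SE of no change. IL19, a ligand of IL20RA and IL20RB, was higher by a log2 fold change of 0.51. IL1B was the most abundant ligand at 836 TPM and was not called (0.07).

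**Figure D5:**
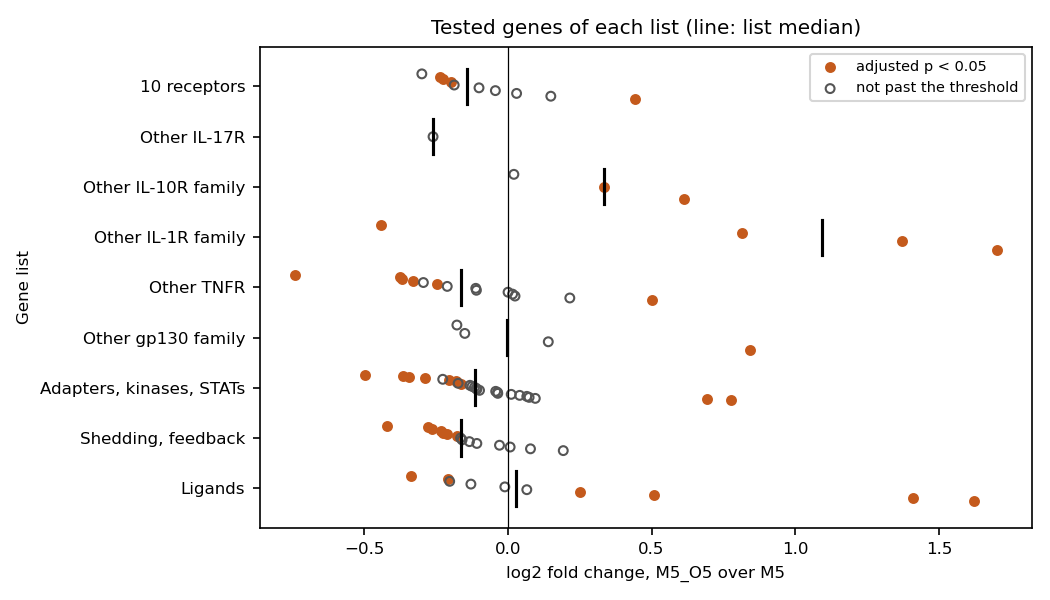
Log2 fold change of M5_O5 over M5 (x axis) of each tested gene in each list (y axis), filled where the edgeR adjusted p was under 0.05, with a line at the list's median. The 10 receptors lie between -0.30 and 0.44, and LIF and IL6 among the ligands at 1.41 and 1.62.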

How the data were processed

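The authors deposited 1 table with, for each RefSeq transcript, the estimated count, TPM and FPKM for 8 libraries prepared with the SMARTer kit. The study's methods name StringTie for the counts, while the processing notes name RSEM. The values were treated here as RSEM output. The submitters' processing notes name HISAT2 2.1.0, Bowtie2 2.2.5, RSEM 1.2.8 and the build mm10, which is a mouse build, although the listed transcripts are human; the build of the files is therefore taken as not established and no coordinates were drawn from them. Of the nonzero estimated counts, 90.1% were not whole. Here 86639 transcript values, 4181 of them further placements of a listed transcript, were summed to 17131 genes and rounded, and genes were filtered with filterByExpr. M5_O5 and M5 (4 libraries each, by title) were compared with edgeR 4.0.16 (TMM, quasi-likelihood, R 4.3.3) on counts, TPM being used for levels and ratios and deposited FPKM for an alternative of the ratios. Ratios and shares were tested with exact permutation (scipy 1.17.1). On simulated counts over 12434 genes, without a trend of fold change on level, edgeR recovered 95 of 100 changes of 2-fold and 98 of 100 of 4-fold, with 11 false calls. With a trend planted, whose size was not taken from these data, there were 5735 false calls, and 12 once it was subtracted. Changes smaller than 2-fold, such as those of the called receptors, were not simulated. Apart from the trend, changes were planted in only 200 genes, evenly up and down, far fewer than were called in the data. How the scaling behaves with so many changed genes was therefore not tested. Alternatives were DESeq2 1.42.0, limma 3.58.1 on log2(TPM + 1) and log2(TPM + 0.1), other scalings and filters, a loess (span 0.5) of fold change on level, a replicate block, first placements only, and each library left out. The receptors and lists were chosen with earlier results of these data known. Genes of other lists are named by a rule: the 3 with the largest change among those called at a mean of at least 1 CPM, and the most abundant; IL1RL2 and the flanking genes were added after their values were seen. IL17RB, IL1RAPL1, IL17A, IL17F, IL22 and IL26 were not analysed here. The depth of 13708055 to 16922693 counts and a biological coefficient of variation of 7.42% set the precision.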

Additional observations from a re-analysis of the deposited data

Results flagged for a closer look

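In 3 of 48 groups of 4 libraries checked, 1 library stood apart from the other 3 by more than Dixon's 95% critical value, where chance would give about 2.4. IL1R1 was at 30.804 CPM in M5 replicate 1, against 25.536 to 25.995 in the other M5 libraries; without that library the log2 fold change of IL1R1 was 0.51 in place of 0.44. The leading transcript of IL1R1 held 84.033% of the gene's counts in M5_O5 replicate 3, against 75.223% to 75.906% in the other M5_O5 libraries. The leading transcript of TNFRSF1B held 61.11% in M5_O5 replicate 3, against 95.966% to 100% in the others, on a gene with 49 to 69 counts per library.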

How the results depend on the processing

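The rise of IL1R1 and the IL1R1/IL1RAP ratio kept their direction under all alternatives run, and IL1R1 its call, with log2 ratios of 0.61 to 0.69 with a library left out. The number of receptors lower in M5_O5, 3, became 0 on log2(TPM + 1), on log2(TPM + 0.1), by library size only, with the expression trend removed and at 2-fold, 1 by upper quartile, and 1 to 2 with a library left out (1 without M5_O5 replicate 4 or M5 replicate 3); at 2-fold the number higher was also 0. With the trend removed, 4 of the other receptors were higher (7), and 4 adapters (8), 2 brakes (7) and 1 ligand (2) lower. Over all 12434 tested genes, 2012 were then higher and 1692 lower. With a library left out, the adapters called lower ranged from 5 (without M5 replicate 4) to 9. The ligands called lower ranged from 0 (without M5_O5 replicate 1 or 3, or M5 replicate 3 or 4) to 2. The ratio IL17RA/IL17RC became -0.14 and TNFRSF1A/TNFRSF1B 0.12 with the trend removed, an alternative chosen after the data were seen. The IL1R1 leading share differed by 0.15 points in TPM (-0.87 in counts). Log2 fold changes turned sign for IL17RC (-0.0093, trend removed), OSMR (0.016 by library size, 0.076 trend removed), IL6ST (-0.028 without M5 replicate 2, with left-out values up to 0.088) and TNFRSF1B (0.055, 0.087, 0.071 and 0.012 on TPM + 1, TPM + 0.1, library size and upper quartile; left out, from -0.11 without M5 replicate 2 to 0.025 without M5 replicate 1, and above 0 also without M5_O5 replicate 1). The cause was not tested. Calls over all genes were 2420 higher and 2192 lower (52.5% higher), against 79.3% by library size, 81.1% and 81.0% on TPM, and 66.8% by upper quartile; library size gave 3858 and 1008, log2(TPM + 1) 3261 and 761, log2(TPM + 0.1) 3264 and 768. Deviations from the group mean correlated at -0.0058 to 0.278 between same-numbered libraries and at -0.304 to 0.340 between the others. Pairing by number was therefore neither shown nor excluded, and the main fit assumed none. With a replicate block 1 receptor was higher and 3 lower (IL1R1 0.44), as without it, and 2703 genes were higher and 2552 lower. Depth limits IL22RA1 and TNFRSF1B, at 19 to 69 counts per library.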
